A study of Mus musculus with 12 samples.

Results

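Glycolysis and the pentose phosphate pathway were followed through 36 genes, taken by symbol from a list of both pathways out of the 24346 symbols measured. All 36 were present, and 35 reached 1 FPKM (fragments per kilobase of transcript, scaled to the fragments of the library) in at least 3 of the 12 libraries, the filter for a test. Rpia, the isomerase that makes ribose 5-phosphate, was the 1 member left out, with 0.394 to 1.16 FPKM. The libraries are bulk RNA-seq of macrophages sorted from tumours of Arg1-RFP mice, in which a red fluorescent protein reports the arginase 1 gene. Every group shares that reporter allele and the gate CD45+ MHCII+ F4/80+ CD11b+ without Ly6C, Ly6G, NK1.1, B220 or CD90.2. The 4 groups of 3 libraries are RFP+ cells of B16F10 tumours, RFP- cells of B16F10 tumours, RFP+ cells of MC38 tumours and RFP- cells of MC38 tumours. B16F10 is a mouse melanoma line and MC38 a mouse colon carcinoma line. Strain, age, sex and time after tumour injection are not given in the labels. Which animal, or how many, each library came from is not stated, and p-values therefore measure only the spread between libraries, which may be technical. Per-library values are given below in the order of the title numbers, 12, 11 and 3 in B16F10 and 1, 2 and 3 in MC38.

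Glycolysis splits glucose into pyruvate in the cytosol and yields ATP and NADH, and lactate dehydrogenase then turns pyruvate into lactate to restore NAD+. The pentose phosphate pathway branches off at glucose 6-phosphate: its oxidative arm yields NADPH, and its non-oxidative arm links ribose 5-phosphate with glycolytic sugars. Macrophages use both, NADPH serving the oxidative burst and the upkeep of glutathione, and low oxygen raises many glycolytic genes through the factor HIF-1. Several steps have more than 1 isoenzyme, and the isoenzyme in use differs between cell types.

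Total FPKM ran from 614875 to 815591 per library, the highest in B16F10 RFP- 12. That library also listed the most genes at 0 (10597) and had correlations across genes of 0.938 to 0.961 to its 5 fellow B16F10 libraries, which had 0.964 to 0.983 to one another. Read totals are not used here. Judged from the spacing of the smallest values, a rough guide since only 4.92% to 6.37% of low genes in the 11 other libraries fitted it closely, the FPKM worth of a single read was 3.03 to 3.63 times that of the deepest MC38 library in B16F10 libraries. Arg1 followed the gate: it had 615, 642 and 916 FPKM in B16F10 RFP+ and 62.8, 56.2 and 125 FPKM in B16F10 RFP- libraries, and 471, 553 and 394 FPKM in MC38 RFP+ and 56, 58.5 and 40.6 FPKM in MC38 RFP- libraries. All 15 macrophage core markers were detected in every group. Their summed FPKM was 8784 to 17807 in B16F10 RFP+, 7713 to 17594 in B16F10 RFP-, 45903 to 46414 in MC38 RFP+ and 36425 to 39705 in MC38 RFP- libraries. The 10 melanocytic markers, genes of pigment cells and melanoma, summed to 8393 to 11019 FPKM in B16F10 RFP+ and 8426 to 11015 FPKM in B16F10 RFP- libraries, against 15 to 19.9 FPKM in MC38 RFP+ and 11.3 to 15.3 FPKM in MC38 RFP- libraries. In the number 11 libraries of B16F10 the melanocytic sum exceeded the macrophage core sum, with 11019 against 8784 FPKM in RFP+ 11 and 11015 against 7713 FPKM in RFP- 11. All 10 melanocytic markers reached 1 FPKM in both B16F10 groups and 5 did in both MC38 groups. Mitf made the largest part of the MC38 sums, with 3.94 to 9.01 FPKM. Sox10 and Gpr143 had at most 0.0849 and 0.0887 FPKM in MC38 libraries. The 10 epithelial markers summed to at most 2.52 FPKM in B16F10 and 12.4 FPKM in MC38 libraries, with Krt19 at 0 in every library. Red cell markers summed to 85.9 to 370.2 FPKM in B16F10 RFP+ and 79.2 to 390.3 FPKM in B16F10 RFP- libraries, against 3.48 to 6.69 FPKM in MC38 RFP+ and 5.96 to 14.4 FPKM in MC38 RFP- libraries. Neutrophil markers summed to 50.2 to 366 FPKM in B16F10 RFP+ and 33 to 843 FPKM in B16F10 RFP- libraries, against 43.9 to 50.1 FPKM in MC38 RFP+ and 40.9 to 46.4 FPKM in MC38 RFP- libraries. These markers disagreed: S100a8 and S100a9 had 477 and 224 FPKM in B16F10 RFP- 3, the highest sum. Csf3r was lower in B16F10 (5.23 to 21.6 FPKM) than in MC38 libraries (30.8 to 41.8 FPKM). Tumour line, melanocytic RNA and the rough FPKM worth of a read, which is only a guide to depth, changed together. The parts of line, depth and melanocytic RNA in any difference between the tumours therefore cannot be told apart. In bulk RNA, fewer cells of a type and less RNA per cell cannot be told apart either.

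**Figure D1:**
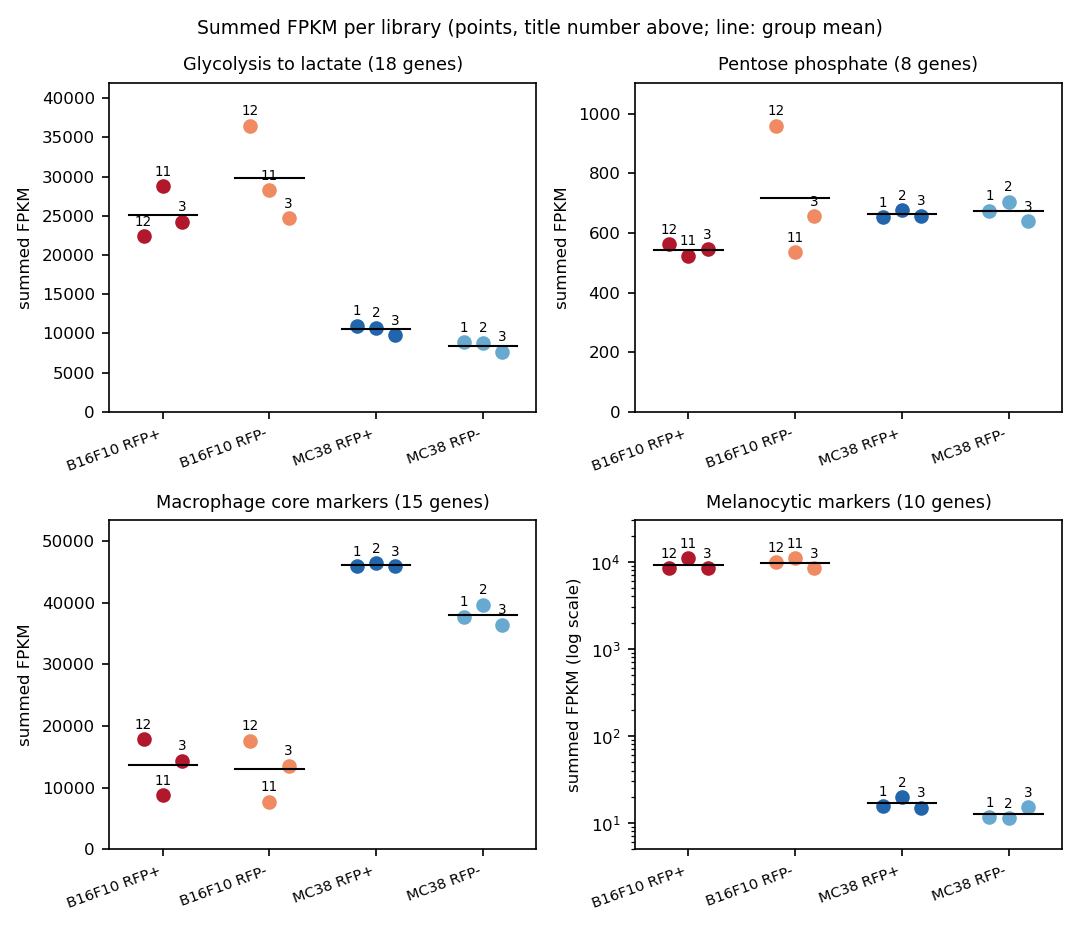
Summed FPKM per library (y axis) by group (x axis) for 18 genes of glycolysis to lactate, 8 pentose phosphate genes, 15 macrophage core markers and 10 melanocytic markers (log scale). Points are libraries with their title number and lines are means of 3; the glycolytic sum is 22432 to 28755 in B16F10 RFP+ and 24687 to 36452 in B16F10 RFP- libraries, above the 9813 to 10994 of MC38 RFP+ and 7695 to 8870.3 of MC38 RFP- libraries.

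The upstream sequences of 3 isoenzyme or transporter pairs whose partners moved unequally between the tumours are shown. The levels of these genes are given below, and a link between them and the sequences was not tested. They are the 250 bases before the transcription start of the first-listed RefSeq window (GRCm38.p6), read 5′ to 3′ on the gene's strand. Capitals mark ACGTG and GCGTG on either strand (CACGT and CACGC when read on the printed strand), the core letters to which HIF-1 can bind, and CACGTG, the E-box, which contains ACGTG.
Hk2 (chr6:82774455-82774704, - strand): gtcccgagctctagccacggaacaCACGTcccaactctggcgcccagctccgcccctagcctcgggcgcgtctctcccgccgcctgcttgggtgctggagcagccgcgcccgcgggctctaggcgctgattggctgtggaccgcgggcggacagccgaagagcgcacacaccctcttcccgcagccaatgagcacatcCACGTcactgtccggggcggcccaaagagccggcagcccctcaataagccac
Hk3 (chr13:55021386-55021635, - strand): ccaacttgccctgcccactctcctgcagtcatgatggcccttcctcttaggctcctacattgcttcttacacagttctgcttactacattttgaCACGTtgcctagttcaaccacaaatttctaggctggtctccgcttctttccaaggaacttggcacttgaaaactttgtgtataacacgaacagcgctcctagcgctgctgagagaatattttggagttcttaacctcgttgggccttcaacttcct
Ldha (chr7:46845554-46845803, + strand): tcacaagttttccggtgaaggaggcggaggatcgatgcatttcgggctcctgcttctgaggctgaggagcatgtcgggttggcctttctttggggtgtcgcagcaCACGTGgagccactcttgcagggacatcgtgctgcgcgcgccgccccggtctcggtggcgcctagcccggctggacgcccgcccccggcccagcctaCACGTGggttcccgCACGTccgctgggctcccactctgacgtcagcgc
Ldhb (chr6:142507958-142508207, - strand): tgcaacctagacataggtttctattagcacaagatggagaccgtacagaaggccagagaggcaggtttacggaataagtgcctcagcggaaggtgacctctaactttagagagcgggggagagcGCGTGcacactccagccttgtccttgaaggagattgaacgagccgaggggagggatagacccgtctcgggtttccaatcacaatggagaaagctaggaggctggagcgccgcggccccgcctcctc
Slc16a1 (chr3:104638414-104638663, + strand): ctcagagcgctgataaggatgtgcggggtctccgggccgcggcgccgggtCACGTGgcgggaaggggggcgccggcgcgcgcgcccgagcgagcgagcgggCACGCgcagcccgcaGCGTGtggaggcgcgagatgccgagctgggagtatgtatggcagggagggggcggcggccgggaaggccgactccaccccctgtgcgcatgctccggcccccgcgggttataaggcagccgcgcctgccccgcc
Slc16a3 (chr11:120948817-120949066, + strand): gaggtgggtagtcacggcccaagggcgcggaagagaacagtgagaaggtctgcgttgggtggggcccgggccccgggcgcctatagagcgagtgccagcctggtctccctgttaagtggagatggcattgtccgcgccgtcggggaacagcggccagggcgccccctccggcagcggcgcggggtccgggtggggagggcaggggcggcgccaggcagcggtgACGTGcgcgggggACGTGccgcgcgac
The window of Ldha holds ACGTG and CACGTG, the windows of Hk2, Hk3 and Slc16a3 hold ACGTG, and that of Ldhb holds GCGTG alone. Slc16a1 has all of these letters. Ldha has 2 listed windows, of which the first is shown. Of the 36 members 35 had a RefSeq window. ACGTG stood in 11 of the 35 windows (31.4%, against 16.6% of 27025 promoters and 22.5% of the 9019 promoters of genes past the filter). GCGTG stood in 20 (57.1%, against 28.2% and 45.9%), and either of them in 26 (74.3%, against 38.6% and 57.4%). CACGTG stood in 3 (8.57%, against 6.05% and 8.66%). These are matches of letters and not binding sites.

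The first comparison set B16F10 against MC38 libraries within each gate. Most glycolytic genes were higher in B16F10 libraries of either gate, while 1 hexokinase, 1 lactate transporter, transaldolase and liver glycogen phosphorylase had lower FPKM there. In RFP+ cells 21 of 35 members passed as higher (60%, against 35.2% of all 11808 genes tested) and 5 as lower (14.3%, against 20%). In RFP- cells 25 passed as higher (71.4%, against 37.8%) and 4 as lower (11.4%, against 21.9%). The same 21 higher and 4 lower members passed in both gates (background 30.7% and 17.5%). All 6 B16F10 libraries lay above all 6 MC38 libraries in 23 members (65.7%, against 31.9% of all genes) and below them in 4 (11.4%, against 17.5%). The median log2 difference of the members was 0.85 in RFP+ and 1.17 in RFP- cells, beside 0.23 and 0.23 over all genes tested. The members took 3.77 to 4.75% of total FPKM in B16F10 RFP+ and 4.21 to 4.78% in B16F10 RFP- libraries, against 1.58 to 1.82% in MC38 RFP+ and 1.36 to 1.56% in MC38 RFP- libraries. Scaling every library to the macrophage core genes shifted the differences of all genes by a median of 1.78 in RFP+ and 1.76 in RFP- cells. Then 33 members passed as higher and 0 as lower in each gate. Under the same scaling 84.6% of all genes passed as higher and 2.72% as lower in RFP+ cells, and 82.4% and 2.96% in RFP- cells, so the count of 33 says little about the members. Under that scaling no called-lower member had a negative difference, though Hk3, Slc16a3, Taldo1 and Pygl lay -1.34, -1.55, -0.73 and -1.12 from the median of all genes in RFP+ cells (log2). Quantile normalization shifted the differences of all genes by a median of -0.17 in RFP+ and -0.19 in RFP- cells. Eno2, which passed the filter only through its B16F10 libraries, counts among the higher members and had to differ.

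**Figure D2:**
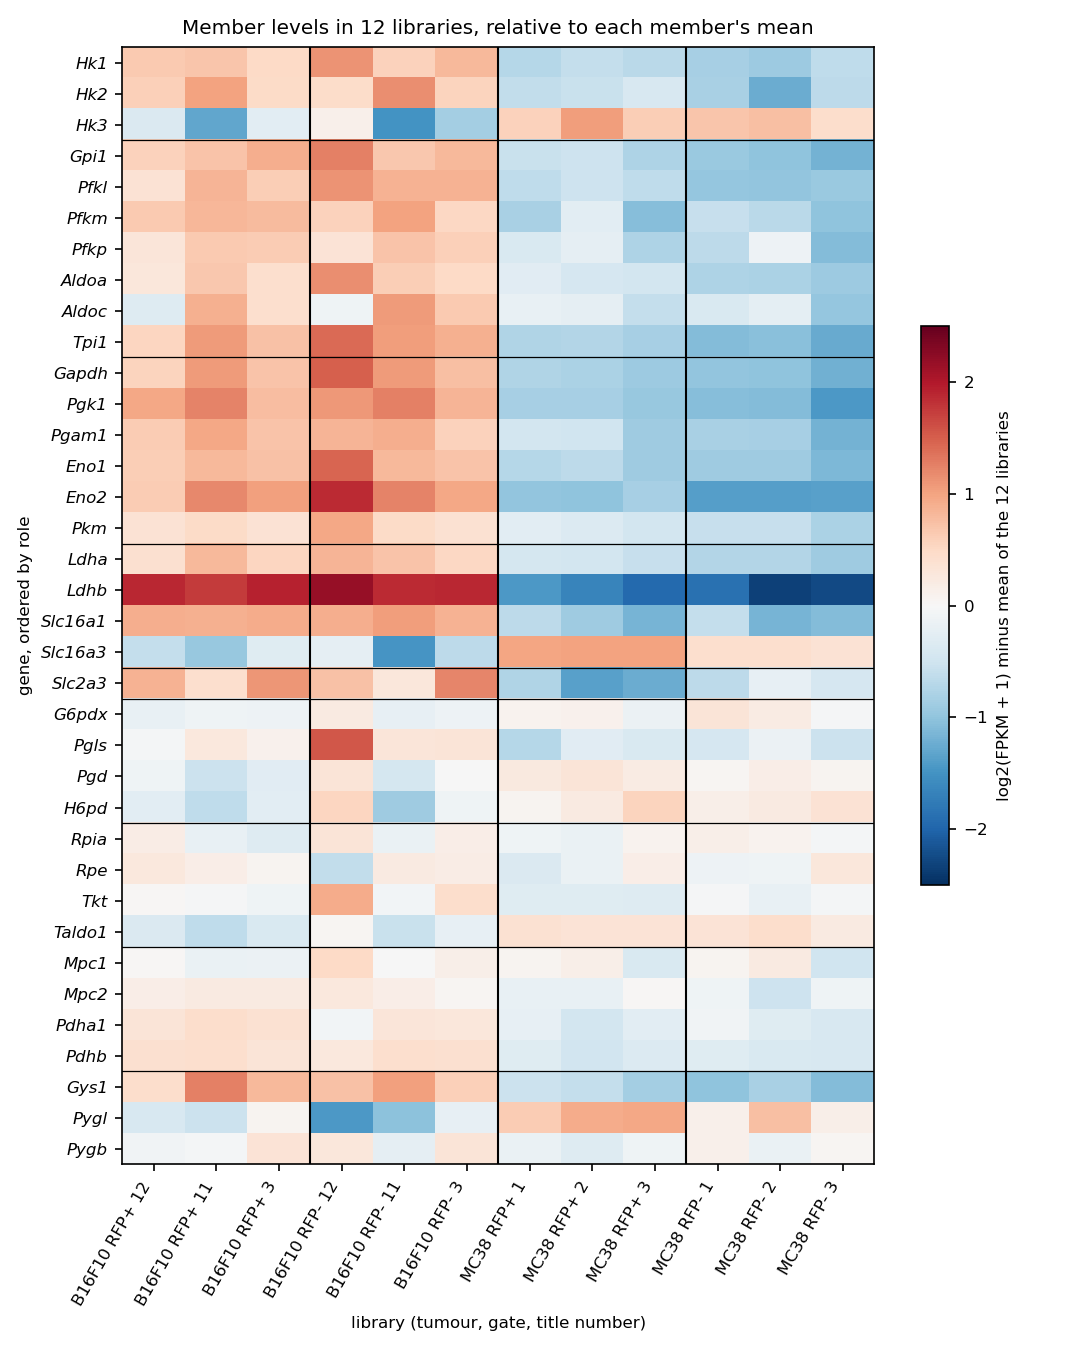
Levels of the 36 members (rows, in order of role, lines between roles) in the 12 libraries (columns), as log2(FPKM + 1) minus the member's mean over all 12. Most glycolytic rows are red in the 6 B16F10 columns and blue in the 6 MC38 columns; Hk3, Slc16a3, Taldo1 and Pygl run the other way in FPKM, which scaling to the macrophage core genes turns round, and several rows peak in B16F10 RFP- 12.

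Hexokinases trap glucose in the cell as glucose 6-phosphate. Hk1, the broadly expressed form, had 65.9, 67.1 and 58.5 FPKM in B16F10 RFP+ and 91.9, 62.5 and 73.3 FPKM in B16F10 RFP- libraries. Hk1 in MC38 had 24.8, 27 and 25.6 FPKM in RFP+ and 22.8, 21.6 and 26.3 FPKM in RFP- libraries. All 6 B16F10 values lay above all 6 MC38 values, with a log2 difference of 1.27 ± 0.15 in RFP+ and 1.63 ± 0.15 in RFP- cells (SE, limma adjusted p = 1.35e-05 and 1.3e-06). Hk2, the inducible form, had 42.1, 56.3 and 38.4 FPKM in B16F10 RFP+ and 38.4, 62.5 and 41 FPKM in B16F10 RFP- libraries. Hk2 in MC38 had 17.6, 18.3 and 20.4 FPKM in RFP+ and 15.3, 11.1 and 17.1 FPKM in RFP- libraries. The tumours did not overlap, with a log2 difference of 1.22 ± 0.21 in RFP+ and 1.63 ± 0.21 in RFP- cells (SE, limma adjusted p = 0.000322 and 2.64e-05). Hk3, the form best known from myeloid cells, had 39.8, 20.5 and 42.7 FPKM in B16F10 RFP+ and 56.2, 17.8 and 28.4 FPKM in B16F10 RFP- libraries. Hk3 in MC38 had 77.7, 107 and 79.7 FPKM in RFP+ and 84.5, 88.3 and 70.9 FPKM in RFP- libraries, so every MC38 library lay above every B16F10 library. Its log2 difference of -1.39 ± 0.34 in RFP+ and -1.37 ± 0.34 in RFP- cells (SE, limma adjusted p = 0.00404 and 0.00392) turned to 0.56 and 0.56 once scaled to the macrophage core genes, which ended the calls. Glucose uptake was represented by Slc2a3, the transporter GLUT3, with 4.97, 3.38 and 6.09 FPKM in B16F10 RFP+ and 4.42, 2.99 and 6.71 FPKM in B16F10 RFP- libraries. Slc2a3 in MC38 had 0.952, 0.29 and 0.383 FPKM in RFP+ and 1.09, 1.87 and 1.45 FPKM in RFP- libraries. All 6 B16F10 values were above all 6 MC38 values, with a log2 difference of 1.91 ± 0.27 in RFP+ and 1.17 ± 0.27 in RFP- cells (SE, limma adjusted p = 6.73e-05 and 0.00252).

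The first stage of glycolysis turns glucose 6-phosphate into 3-carbon sugars. Gpi1, the isomerase that makes fructose 6-phosphate, had 647, 711 and 813 FPKM in B16F10 RFP+ and 1033, 690.3 and 759 FPKM in B16F10 RFP- libraries. Gpi1 in MC38 had 291, 299.9 and 252 FPKM in RFP+ and 225, 215 and 189 FPKM in RFP- libraries. The tumours were wholly apart, with a log2 difference of 1.36 ± 0.16 in RFP+ and 1.96 ± 0.16 in RFP- cells (SE, limma adjusted p = 1.35e-05 and 4.81e-07). Phosphofructokinase commits the sugar to glycolysis and has 3 subunits, liver (Pfkl), muscle (Pfkm) and platelet (Pfkp). Pfkl had 169.6, 236 and 201 FPKM in B16F10 RFP+ and 288, 241 and 239 FPKM in B16F10 RFP- libraries. Pfkl in MC38 had 84.1, 90.7 and 83.8 FPKM in RFP+ and 66.2, 65.9 and 68 FPKM in RFP- libraries. Its log2 difference of 1.21 ± 0.14 in RFP+ and 1.92 ± 0.14 in RFP- cells (SE, limma adjusted p = 8.05e-06 and 1.18e-07) came with no overlap between the tumours, and no overlap between the gates in either tumour. Pfkp had 142, 182 and 179.8 FPKM in B16F10 RFP+ and 146, 189 and 175 FPKM in B16F10 RFP- libraries. Pfkp in MC38 had 87.7, 98.9 and 67.3 FPKM in RFP+ and 73.1, 106 and 53.9 FPKM in RFP- libraries. The B16F10 libraries were all higher, with a log2 difference of 0.99 ± 0.22 in RFP+ and 1.16 ± 0.22 in RFP- cells (SE, limma adjusted p = 0.0021 and 0.000566). Pfkm was the least abundant subunit, with 11.8, 13.5 and 13.1 FPKM in B16F10 RFP+ and 11.1, 15.3 and 10.6 FPKM in B16F10 RFP- libraries. Pfkm in MC38 had 3.62, 5.74 and 2.88 FPKM in RFP+ and 4.47, 4.13 and 3.07 FPKM in RFP- libraries. These tumour groups did not overlap either, with a log2 difference of 1.48 ± 0.23 in RFP+ and 1.44 ± 0.23 in RFP- cells (SE, limma adjusted p = 0.000109 and 0.000118).

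Aldolase cleaves fructose 1,6-bisphosphate, and Aldoa made up nearly all of its FPKM. Aldoa had 3095, 4107 and 3418 FPKM in B16F10 RFP+ and 5758, 3926 and 3608 FPKM in B16F10 RFP- libraries. Aldoa in MC38 had 2089, 1903 and 1862 FPKM in RFP+ and 1508, 1472 and 1356 FPKM in RFP- libraries. Every B16F10 library exceeded every MC38 library, with a log2 difference of 0.85 ± 0.18 in RFP+ and 1.59 ± 0.18 in RFP- cells (SE, limma adjusted p = 0.00154 and 9.01e-06). Aldoc, the form best known from brain, had 25.3, 59.8 and 43.1 FPKM in B16F10 RFP+ and 29.6, 67.3 and 50.7 FPKM in B16F10 RFP- libraries. Aldoc in MC38 had 27.8, 27 and 20.7 FPKM in RFP+ and 24.3, 26.9 and 15.7 FPKM in RFP- libraries. In RFP+ cells the tumours overlapped through B16F10 RFP+ 12, and the log2 difference of 0.67 ± 0.33 in RFP+ and 1.07 ± 0.33 in RFP- cells (SE, limma adjusted p = 0.0975 and 0.0124) passed in RFP- cells alone. That call ended without B16F10 RFP- 11 (log2 0.81, limma adjusted p = 0.0537) or MC38 RFP- 3 (log2 0.84, limma adjusted p = 0.0596). Tpi1, which interconverts the 3-carbon sugars, had 1965, 2832 and 2234 FPKM in B16F10 RFP+ and 3605, 2777 and 2480.4 FPKM in B16F10 RFP- libraries. Tpi1 in MC38 had 799, 814 and 761 FPKM in RFP+ and 636, 655 and 563 FPKM in RFP- libraries. No MC38 library reached a B16F10 library, and the fit gave a log2 difference of 1.55 ± 0.17 in RFP+ and 2.24 ± 0.17 in RFP- cells (SE, limma adjusted p = 7e-06 and 2.42e-07).

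The later steps, from glyceraldehyde 3-phosphate to pyruvate, held the most abundant members. Gapdh, which makes the NADH of glycolysis, had 4686, 6725 and 5237 FPKM in B16F10 RFP+ and 9044, 6743 and 5374 FPKM in B16F10 RFP- libraries. Gapdh in MC38 had 1911, 1856 and 1717 FPKM in RFP+ and 1621, 1590.5 and 1389 FPKM in RFP- libraries. The tumours did not overlap, with a log2 difference of 1.59 ± 0.20 in RFP+ and 2.17 ± 0.20 in RFP- cells (SE, limma adjusted p = 2.09e-05 and 1.19e-06). Pgk1, the kinase that yields the first ATP, had 1462, 1764 and 1278 FPKM in B16F10 RFP+ and 1581, 1799 and 1353 FPKM in B16F10 RFP- libraries. Pgk1 in MC38 had 416, 418 and 388 FPKM in RFP+ and 355, 350.4 and 277 FPKM in RFP- libraries. Its B16F10 values were all above its MC38 values, with a log2 difference of 1.87 ± 0.16 in RFP+ and 2.27 ± 0.16 in RFP- cells (SE, limma adjusted p = 7.39e-07 and 1.16e-07). Pgam1, which moves the phosphate group to make 2-phosphoglycerate, had 1065, 1331 and 1128 FPKM in B16F10 RFP+ and 1235, 1291 and 1025 FPKM in B16F10 RFP- libraries. Pgam1 in MC38 had 498, 483 and 371 FPKM in RFP+ and 387, 384 and 299 FPKM in RFP- libraries. Again no value was shared by the ranges of the tumours, with a log2 difference of 1.39 ± 0.16 in RFP+ and 1.73 ± 0.16 in RFP- cells (SE, limma adjusted p = 1.34e-05 and 1.66e-06).

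Enolase makes phosphoenolpyruvate. Eno1, the broadly expressed form, had 2185, 2478 and 2356 FPKM in B16F10 RFP+ and 3904, 2475 and 2311 FPKM in B16F10 RFP- libraries. Eno1 in MC38 had 868, 906 and 771 FPKM in RFP+ and 770.0, 763 and 654 FPKM in RFP- libraries. The tumours were apart, with a log2 difference of 1.46 ± 0.18 in RFP+ and 1.95 ± 0.18 in RFP- cells (SE, limma adjusted p = 2.19e-05 and 1.57e-06). The near-identical Eno1b took 22.5% to 32.9% of the FPKM of both in each library, so the level of Eno1 alone is uncertain, while their sum was 3099 to 5704 FPKM in B16F10 and 844 to 1259 FPKM in MC38 libraries. Eno2, the form best known from neurons, had 3.01, 4.99 and 4.29 FPKM in B16F10 RFP+ and 8.54, 5.12 and 4.1 FPKM in B16F10 RFP- libraries. Eno2 in MC38 had 0.306, 0.29 and 0.466 FPKM in RFP+ and 0.00582, 0.00522 and 0.0112 FPKM in RFP- libraries. No Eno2 value in MC38 reached the filter of 1 FPKM, and its log2 difference of 1.90 ± 0.24 in RFP+ and 2.73 ± 0.24 in RFP- cells (SE, limma adjusted p = 2.02e-05 and 7.36e-07) was fixed in direction by that. Pkm, pyruvate kinase, had 2680.4, 2886 and 2661 FPKM in B16F10 RFP+ and 4072, 2896 and 2703 FPKM in B16F10 RFP- libraries. Pkm in MC38 had 1724, 1649 and 1507 FPKM in RFP+ and 1389.9, 1391 and 1209.8 FPKM in RFP- libraries. The tumours did not overlap, and Pkm had a log2 difference of 0.75 ± 0.16 in RFP+ and 1.26 ± 0.16 in RFP- cells (SE, limma adjusted p = 0.00163 and 2.61e-05), the smallest such difference among the 6 genes of these steps.

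Lactate dehydrogenase is built from A (Ldha) and B (Ldhb) subunits, the A form favouring lactate and the B form pyruvate. Ldhb had the largest tumour difference of all members in both gates. Ldhb had 502, 458 and 517 FPKM in B16F10 RFP+ and 616, 492 and 499 FPKM in B16F10 RFP- libraries. Ldhb in MC38 had 48.9, 42.1 and 34.6 FPKM in RFP+ and 36.3, 25.9 and 27.6 FPKM in RFP- libraries. The lowest B16F10 library thus lay far above the highest MC38 library, with a log2 difference of 3.54 ± 0.16 in RFP+ and 4.12 ± 0.16 in RFP- cells (SE, limma adjusted p = 2.9e-09 and 4.95e-10), or a 11.6-fold and 17.4-fold higher level on the FPKM + 1 scale. Ldha had 3646, 4824 and 4014 FPKM in B16F10 RFP+ and 4935, 4479.8 and 3954 FPKM in B16F10 RFP- libraries. Ldha in MC38 had 2024, 2008 and 1848 FPKM in RFP+ and 1651, 1649 and 1475 FPKM in RFP- libraries. Ldha was higher in B16F10 libraries without overlap, with a log2 difference of 1.08 ± 0.15 in RFP+ and 1.48 ± 0.15 in RFP- cells (SE, limma adjusted p = 6.02e-05 and 3.34e-06).

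Lactate crosses the membrane through monocarboxylate transporters. Slc16a1, which encodes the widely expressed MCT1, had 24.5, 24.1 and 24.7 FPKM in B16F10 RFP+ and 24.5, 27.2 and 23.9 FPKM in B16F10 RFP- libraries. Slc16a1 in MC38 had 7.66, 6.33 and 5.05 FPKM in RFP+ and 7.93, 5.05 and 5.43 FPKM in RFP- libraries. Its B16F10 libraries differed little among themselves and all lay above MC38, with a log2 difference of 1.81 ± 0.18 in RFP+ and 1.90 ± 0.18 in RFP- cells (SE, limma adjusted p = 3.51e-06 and 2.01e-06). Slc16a3, which encodes MCT4, the transporter of cells that export lactate, had 56.7, 44.1 and 70.3 FPKM in B16F10 RFP+ and 73.6, 30.4 and 54.3 FPKM in B16F10 RFP- libraries. Slc16a3 in MC38 had 172, 175 and 175 FPKM in RFP+ and 116, 116 and 112 FPKM in RFP- libraries. Every MC38 library was above every B16F10 library, and in MC38 the RFP+ libraries were all above the RFP- libraries. The log2 difference of -1.62 ± 0.25 in RFP+ and -1.19 ± 0.25 in RFP- cells (SE, limma adjusted p = 0.00012 and 0.0011) turned to 0.35 and 0.76 once scaled to the macrophage core genes.

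On FPKM as deposited, the summed level of the glycolytic genes was higher in every B16F10 library of either gate. The pentose phosphate sum overlapped between the tumours in RFP- cells. In RFP+ cells it was lower in every B16F10 library (524 to 562 FPKM) than in any MC38 library (653 to 676 FPKM). Taldo1 alone had a mean of 168 FPKM in B16F10 RFP+ and 296 FPKM in MC38 RFP+ libraries. The means of G6pdx, Pgd, H6pd and Rpia were also lower in B16F10 RFP+ libraries, while those of Pgls, Tkt and Rpe were higher. The summed FPKM of all 8 pentose phosphate genes was 544 ± 19.3 in B16F10 RFP+ and 716 ± 218 in B16F10 RFP- libraries, against 662 ± 12.3 in MC38 RFP+ and 673 ± 32.9 in MC38 RFP- libraries (SD, n = 3 each). The sum for 18 genes of glycolysis to lactate was 25142 ± 3257 in B16F10 RFP+ and 29789 ± 6036 in B16F10 RFP- libraries, against 10521 ± 625 in MC38 RFP+ and 8461 ± 665 in MC38 RFP- libraries. G6pdx, glucose 6-phosphate dehydrogenase, which opens the oxidative arm, ran from 50.1 to 53.2 FPKM in B16F10 RFP+, 49.6 to 66.8 in B16F10 RFP-, 51.5 to 61.8 in MC38 RFP+ and 56.5 to 71.9 in MC38 RFP- libraries. The tumours overlapped, and its log2 difference of -0.16 ± 0.15 in RFP+ and -0.20 ± 0.15 in RFP- cells (SE, limma adjusted p = 0.379 and 0.243) did not pass; scaling to the macrophage core genes turned both positive (1.80 and 1.74). H6pd, the form of the endoplasmic reticulum, ran from 3.82 to 12 FPKM in B16F10 and from 8.33 to 12.2 FPKM in MC38 libraries and did not pass (-0.67 ± 0.29 in RFP+ and -0.39 ± 0.29 in RFP- cells, limma adjusted p = 0.0666 and 0.259).

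Pgls, the lactonase of the oxidative arm, had 99, 122 and 109 FPKM in B16F10 RFP+ and 299.9, 126 and 128 FPKM in B16F10 RFP- libraries. Pgls in MC38 had 62.1, 83.4 and 77.5 FPKM in RFP+ and 75.5, 91.5 and 69.7 FPKM in RFP- libraries. The value of B16F10 RFP- 12 was more than 2 times any other, and the log2 difference of 0.57 ± 0.27 in RFP+ and 1.10 ± 0.27 in RFP- cells (SE, limma adjusted p = 0.0908 and 0.00335) passed in RFP- cells alone, also without that library (log2 0.69, limma adjusted p = 0.00219). Pgd, the dehydrogenase that yields the second NADPH, had 92.6, 68.4 and 81.3 FPKM in B16F10 RFP+ and 124, 73 and 98.5 FPKM in B16F10 RFP- libraries. Pgd in MC38 had 118, 124 and 115 FPKM in RFP+ and 102, 112 and 105 FPKM in RFP- libraries. In RFP+ cells its B16F10 libraries were all below its MC38 libraries, and the log2 difference of -0.56 ± 0.17 in RFP+ and -0.14 ± 0.17 in RFP- cells (SE, limma adjusted p = 0.0141 and 0.51) passed there alone. That call turned to 1.41 under scaling to the macrophage core genes and ended without B16F10 RFP+ 11 (log2 -0.45, limma adjusted p = 0.0657).

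In the non-oxidative arm, Taldo1 (transaldolase) had 180.3, 148 and 177 FPKM in B16F10 RFP+ and 239, 157 and 201 FPKM in B16F10 RFP- libraries. Taldo1 in MC38 had 301, 293 and 294 FPKM in RFP+ and 292, 313 and 269.8 FPKM in RFP- libraries. It was lower in B16F10 without overlap, yet its log2 difference of -0.81 ± 0.15 in RFP+ and -0.57 ± 0.15 in RFP- cells (SE, limma adjusted p = 0.000512 and 0.00558) turned to 1.17 and 1.40 when scaled to the macrophage core genes. Tkt (transketolase) had 109, 104 and 98.8 FPKM in B16F10 RFP+ and 203, 102 and 146 FPKM in B16F10 RFP- libraries. Tkt in MC38 had 87, 86.6 and 85.9 FPKM in RFP+ and 106, 94.4 and 103 FPKM in RFP- libraries. Its log2 difference of 0.26 ± 0.19 in RFP+ and 0.52 ± 0.19 in RFP- cells (SE, limma adjusted p = 0.252 and 0.0306) passed in RFP- cells, where the tumours overlapped. That call ended without B16F10 RFP- 12 (log2 0.27, limma adjusted p = 0.1), and also without B16F10 RFP- 3, MC38 RFP- 1, MC38 RFP- 2 or MC38 RFP- 3 (log2 0.47 to 0.55, limma adjusted p from 0.053 to 0.0908). It also ended without a filter (log2 0.52, limma adjusted p = 0.0641), after quantile normalization (log2 0.31, limma adjusted p = 0.0806) or upper-quartile scaling (log2 0.35, limma adjusted p = 0.0768), and with the compared groups alone (log2 0.52, limma adjusted p = 0.101). Rpe, the epimerase, ran from 12.3 to 23.5 FPKM in B16F10 and from 14.9 to 23.7 FPKM in MC38 libraries and passed in neither gate (limma adjusted p = 0.288 in RFP+ and 0.755 in RFP- cells).

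Pyruvate enters mitochondria through a carrier of 2 proteins, Mpc1 and Mpc2, and the pyruvate dehydrogenase complex, whose E1 enzyme is made from Pdha1 and Pdhb, turns it into acetyl-CoA. Pdhb had 141, 143 and 134 FPKM in B16F10 RFP+ and 129, 144 and 141 FPKM in B16F10 RFP- libraries. Pdhb in MC38 had 86.4, 76.1 and 84.5 FPKM in RFP+ and 87, 81.4 and 80.5 FPKM in RFP- libraries. Spread within groups was small, the tumours did not overlap, and the log2 difference of 0.75 ± 0.11 in RFP+ and 0.72 ± 0.11 in RFP- cells (SE, limma adjusted p = 8.07e-05 and 9.69e-05) passed in both gates. Pdha1 had 80.3, 87 and 83.8 FPKM in B16F10 RFP+ and 60.8, 79.2 and 77.9 FPKM in B16F10 RFP- libraries. Pdha1 in MC38 had 55.4, 46.2 and 53.1 FPKM in RFP+ and 59.9, 51.4 and 48.1 FPKM in RFP- libraries. The tumours were barely apart, with a log2 difference of 0.69 ± 0.14 in RFP+ and 0.44 ± 0.14 in RFP- cells (SE, limma adjusted p = 0.00104 and 0.016). The RFP- call for Pdha1 ended without B16F10 RFP- 11, B16F10 RFP- 3 or MC38 RFP- 3 (log2 0.37 to 0.39, limma adjusted p from 0.051 to 0.0675), and after quantile normalization (log2 0.26, limma adjusted p = 0.2) or upper-quartile scaling (log2 0.27, limma adjusted p = 0.156), or with the compared groups alone (log2 0.44, limma adjusted p = 0.0683). Mpc2 had 69.6, 72.5 and 72.1 FPKM in B16F10 RFP+ and 74, 69.2 and 63.8 FPKM in B16F10 RFP- libraries. Mpc2 in MC38 had 54, 53.9 and 63.1 FPKM in RFP+ and 57.3, 43 and 57 FPKM in RFP- libraries. Its log2 difference of 0.32 ± 0.14 in RFP+ and 0.40 ± 0.14 in RFP- cells (SE, limma adjusted p = 0.061 and 0.0235) passed in RFP- cells alone. That call ended without MC38 RFP- 2 (log2 0.27, limma adjusted p = 0.121), after quantile normalization (log2 0.23, limma adjusted p = 0.156) or upper-quartile scaling (log2 0.23, limma adjusted p = 0.149), with the compared groups alone (log2 0.40, limma adjusted p = 0.0903) and once the number 12 pair was left out of the blocked fit (log2 0.35, limma adjusted p = 0.0563). Mpc1 ran from 169 to 266 FPKM in B16F10 and from 133 to 219 FPKM in MC38 libraries and did not pass (limma adjusted p = 0.881 in RFP+ and 0.241 in RFP- cells).

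Glycogen is the storage form of glucose. Gys1, glycogen synthase, had 32.9, 58.4 and 42.5 FPKM in B16F10 RFP+ and 40.3, 49.6 and 36.6 FPKM in B16F10 RFP- libraries. Gys1 in MC38 had 16, 15.5 and 12.8 FPKM in RFP+ and 11.4, 13.2 and 10.7 FPKM in RFP- libraries. The tumours did not overlap, with a log2 difference of 1.5 ± 0.20 in RFP+ and 1.75 ± 0.20 in RFP- cells (SE, limma adjusted p = 3.55e-05 and 7.95e-06). The exons of Gys1 overlap those of Ruvbl2 on the other strand, which had 34.8 to 111 FPKM, and since the strand setting is not given in the sources used here, reads of both cannot be told apart. Pygl, the liver form of glycogen phosphorylase, which releases glucose 1-phosphate, had 14.5, 13.1 and 20.3 FPKM in B16F10 RFP+ and 6.51, 8.97 and 16.6 FPKM in B16F10 RFP- libraries. Pygl in MC38 had 30.7, 37.5 and 38.8 FPKM in RFP+ and 21.1, 33.2 and 21.4 FPKM in RFP- libraries. Its log2 difference of -1.13 ± 0.28 in RFP+ and -1.23 ± 0.28 in RFP- cells (SE, limma adjusted p = 0.00435 and 0.00226) came without overlap between the tumours and turned to 0.78 and 0.63 once scaled to the macrophage core genes. Pygb, the brain form, ran from 15.9 to 24.1 FPKM in B16F10 and from 14.9 to 20.7 FPKM in MC38 libraries and passed in neither gate (limma adjusted p = 0.242 in RFP+ and 0.588 in RFP- cells).

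**Figure D3:**
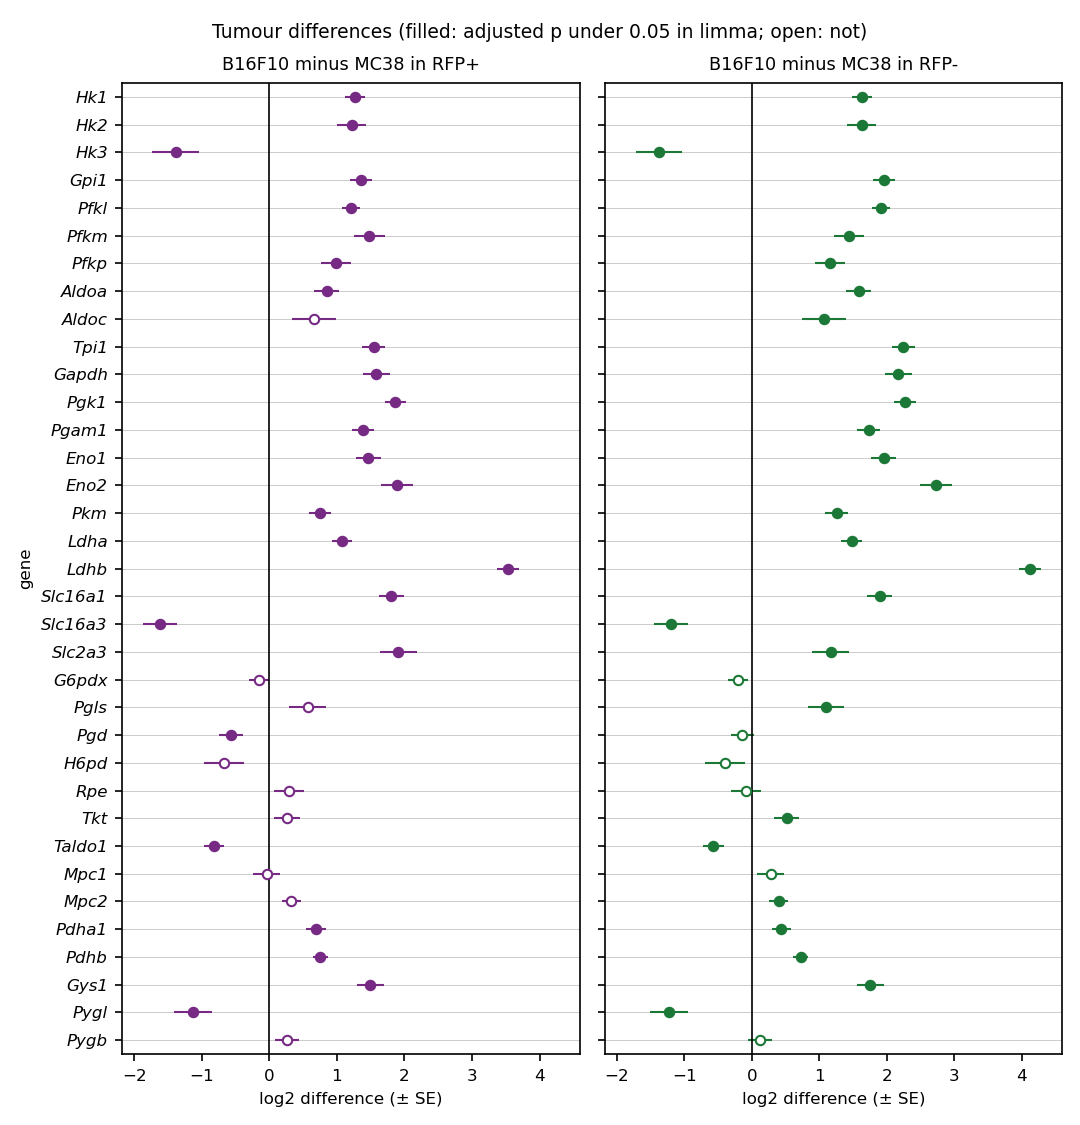
Log2 difference (x axis, log2(FPKM + 1) scale, bars are SE) of B16F10 minus MC38 for the 35 tested members (y axis), in RFP+ cells on the left and RFP- cells on the right. Filled points passed in limma; Ldhb lies farthest to the right in both panels, and Hk3, Slc16a3, Taldo1 and Pygl are filled left of 0, which scaling to the macrophage core genes turns positive.

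Shares within a step do not depend on the total of a library, and they differed between the tumours at several steps. Hk3 made up 23.9% ± 8.59 of hexokinase FPKM in B16F10 RFP+ and 20.8% ± 8.88 in B16F10 RFP- libraries, against 66.1% ± 3.67 in MC38 RFP+ and 68% ± 5.52 in MC38 RFP- libraries (SD, n = 3 each, here and for the other shares). Hk1 made up 44.4% ± 2.38 and 48.1% ± 3.95 in the same B16F10 groups, against 19.6% ± 1.63 and 19.8% ± 2.8 in MC38. Hk3 was thus the leading hexokinase transcript in each MC38 library and in none of the B16F10 libraries. Ldhb held 10.7% ± 1.81 of lactate dehydrogenase FPKM in B16F10 RFP+ and 10.7% ± 0.728 in B16F10 RFP- libraries, against 2.08% ± 0.263 in MC38 RFP+ and 1.84% ± 0.301 in MC38 RFP- libraries. Slc16a3 held 69.5% ± 4.68 of the FPKM of both lactate transporters in B16F10 RFP+ and 65.8% ± 11.5 in B16F10 RFP- libraries, against 96.5% ± 0.727 in MC38 RFP+ and 94.9% ± 1.16 in MC38 RFP- libraries. For these genes the ranges of the tumours did not overlap. Pygl held 44.3% ± 1.91 of the FPKM of Pygl and Pygb in B16F10 RFP+ and 33.1% ± 9.94 in B16F10 RFP- libraries, against 68.5% ± 3.47 in MC38 RFP+ and 56.6% ± 8.8 in MC38 RFP- libraries. Pfkl held 52.8% ± 1.82 of phosphofructokinase FPKM in B16F10 RFP+ and 58.4% ± 5.61 in B16F10 RFP- libraries, against 49.6% ± 4.23 in MC38 RFP+ and 46% ± 8.5 in MC38 RFP- libraries, where the tumours overlapped. Shares were not tested, and the part of melanocytic RNA in them was not tested either.

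**Figure D4:**
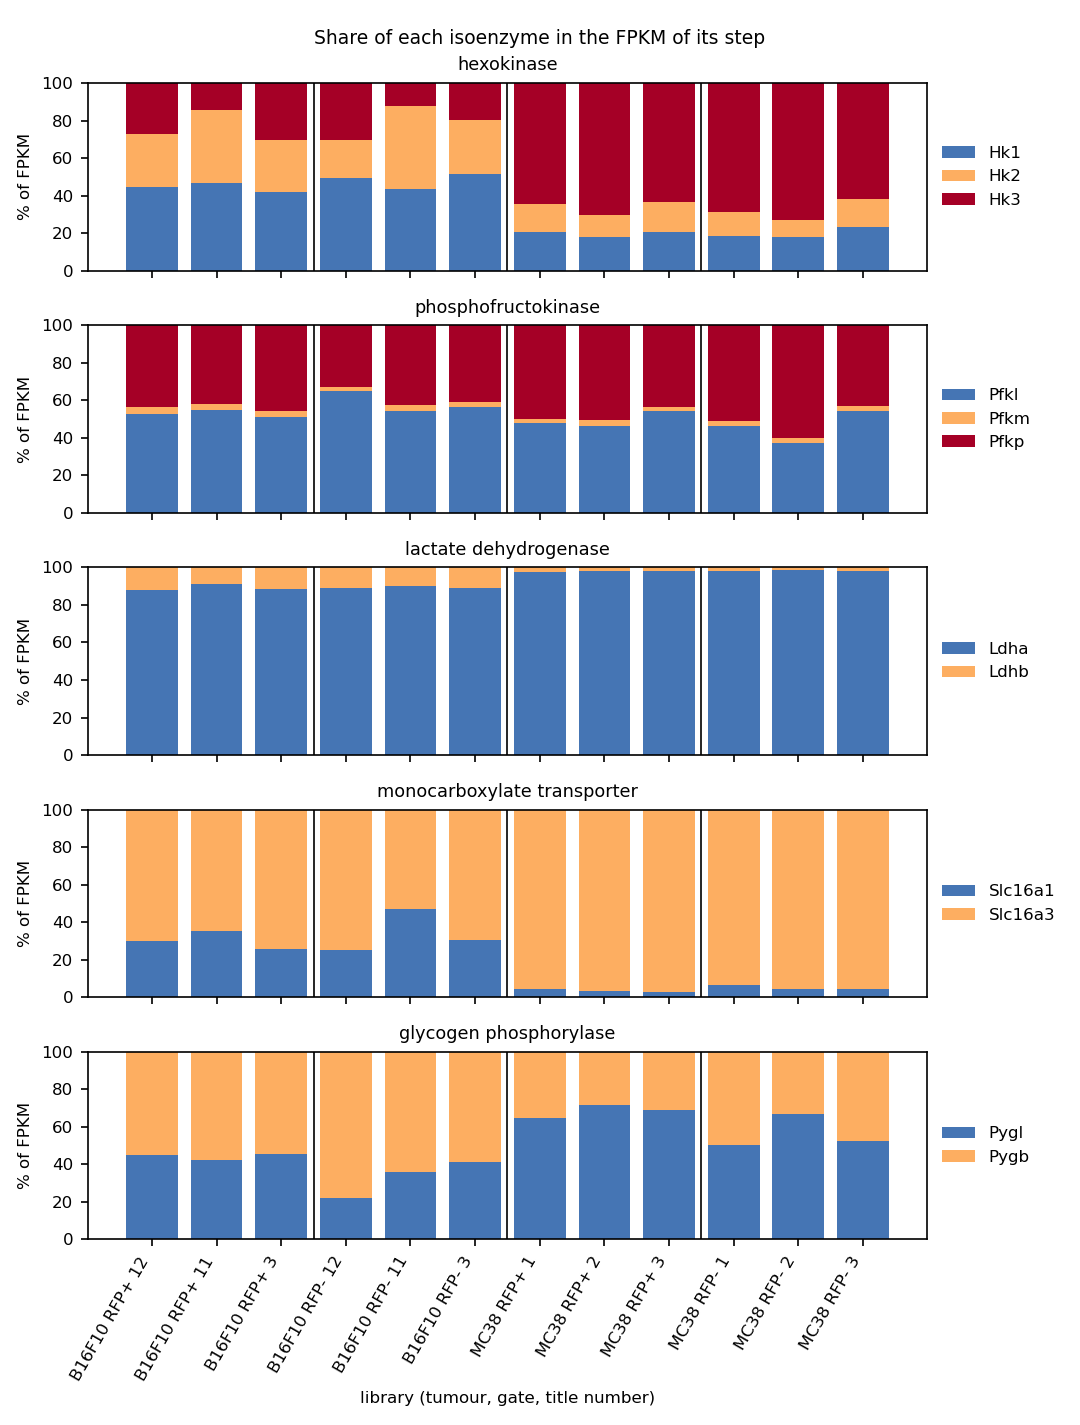
Share of each isoenzyme (colour) in the summed FPKM of its step (y axis, percent) in each library (x axis, lines between groups). Hk3 and Slc16a3 take a smaller share, and Ldhb and Slc16a1 a larger one, in the 6 B16F10 bars than in the 6 MC38 bars.

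The reporter gate was then compared within each tumour. Within B16F10, 0 of 35 members passed in either direction in limma (background 0.127% of genes higher and 0.0508% lower), and 0 passed with the title number as a block (background 0.83% and 0.525%). At an unadjusted p under 0.05, 0 were higher and 3 lower, Pfkl, Pgls and Tkt (background 4.82% and 5%). By mean, 10 members were higher in RFP+ cells and 25 lower (background 48.4% and 51.4%), with a median log2 difference of -0.11 beside -0.012 over all genes. That median was -0.031 without RFP- 12, and -0.0065, with 16 members higher, without the number 12 pair. After quantile normalization 15 were higher and after upper-quartile scaling 14. These settings shifted the differences of all genes by a median of -0.018 and 0.05, in that order. In all 3 pairs of libraries with the same number 9 members were lower in RFP+ cells (25.7%, against 19.1% of all genes), and Pdha1 and Pygl were higher (5.71%, against 17%). The 9 were Pfkl, Aldoc, Gapdh, Pgk1, Pkm, Pgls, Pgd, Taldo1 and Mpc1, of which Pgk1 changed sign in the mean under quantile normalization (log2 0.20). In the number 11 pair, RFP+ against RFP-, Gapdh had 6725 against 6743 FPKM and Pkm 2886 against 2896 FPKM.

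The 4 members with the smallest unadjusted p in B16F10 did not pass. Pfkl, whose values are given above, had all 3 RFP+ libraries below all 3 RFP- libraries (log2 -0.34 ± 0.14, SE, limma adjusted p = 0.482). Pgls had no overlap either (log2 -0.62 ± 0.27, limma adjusted p = 0.497), and its difference was -0.21 without RFP- 12. Tkt overlapped between the gates (log2 -0.47 ± 0.19, limma adjusted p = 0.49). It passed without RFP- 11 (log2 -0.72, limma adjusted p = 0.0435) and was at -0.23 without RFP- 12. Pygl was higher in RFP+ libraries in all 3 pairs, with overlapping groups (log2 0.61 ± 0.28, limma adjusted p = 0.497). Pdha1 was the 1 member whose RFP+ libraries were all above the RFP- libraries (2.86%, against 5.72% of all genes), and Pfkl and Pgls were the lower ones (5.71%, against 6.22%). Once scaled to the macrophage core genes, 0 members kept their groups apart, against 1.49% of all genes higher and 3.84% lower. Beside these values, the 8 dendritic cell markers summed to 13.4 to 20.6 FPKM in B16F10 RFP+ and 29.2 to 54 FPKM in B16F10 RFP- libraries, with 4 and 5 markers at 1 FPKM, and their part in the differences was not tested. The melanocytic sums of both gates overlapped.

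Within MC38, 0 of 35 members passed in either direction in limma (background 0.0254% of genes higher and 0% lower), and 0 with the block (background 0.356% and 0.0847%). Most glycolytic members nevertheless had higher values in RFP+ cells, by small amounts. By mean, 27 members were higher and 8 lower (background 50.4% and 49.4%), with a median log2 difference of 0.16 beside 0.0017 over all genes. That median was 0.29 without RFP+ 3, and 21 members were higher without RFP- 3. In 13 members all 3 RFP+ libraries lay above all 3 RFP- libraries (37.1%, against 6.33% of all genes): Hk2, Gpi1, Pfkl, Aldoa, Tpi1, Gapdh, Pgk1, Eno1, Eno2, Pkm, Ldha, Slc16a3 and Pgd. Of these, Eno2 had at most 0.466 FPKM in any MC38 library, below the filter of 1 FPKM. Slc2a3 and Tkt had the reverse (5.71%, against 4.98%). In all 3 pairs 18 members were higher (51.4%, against 17.3%) and 5 lower (14.3%, against 15.5%). Once scaled to the macrophage core genes 6 of the 13 kept their groups apart (17.1%, against 4.02% of all genes), namely Hk2, Pfkl, Aldoa, Tpi1, Eno2 and Slc16a3, and 24 members were higher by mean. That scaling shifted the differences of all genes in MC38 by a median of -0.044. At an unadjusted p under 0.05, 5 were higher, Gpi1, Pfkl, Aldoa, Ldhb and Slc16a3 (14.3%, against 2.21%), and 1 lower, Slc2a3 (2.86%, against 1.14%).

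By role, the median log2 difference of RFP+ minus RFP- over 7 genes from Gpi1 to Tpi1 was -0.21 in B16F10 and 0.36 in MC38. Its B16F10 value was -0.12 without RFP- 12, -0.10 without RFP+ 12, -0.42 without RFP+ 11 and -0.0065 without the number 12 pair. Its MC38 value stayed between 0.29 and 0.40 when any MC38 library was left out. Over 6 genes from Gapdh to Pkm the median was -0.24 in B16F10 and 0.31 in MC38. The B16F10 value of these genes was -0.051 without RFP- 12, -0.37 without RFP- 3 and -0.0015 without the number 12 pair, so it rested largely on that pair. The MC38 value of these genes stayed between 0.21 and 0.36. Over the 4 genes of lactate and its transport the median was -0.072 in B16F10 and 0.39 in MC38, and the B16F10 value changed sign after quantile normalization (0.0094) and without the number 12 pair (0.02). The medians of the pentose phosphate and pyruvate entry genes lay between -0.25 and 0.034 in B16F10 and between -0.13 and 0.004 in MC38. Each of those moved by over 1.5 times or changed sign when single libraries were left out.

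The members with the smallest unadjusted p in MC38 were Ldhb (log2 0.47 ± 0.16), Pfkl (0.36 ± 0.14), Gpi1 (0.42 ± 0.16) and Slc2a3 (-0.69 ± 0.27; SE), all with a limma adjusted p of 1. Ldhb overlapped between the gates, while the other named genes did not. Slc16a3 had the largest mean difference among the higher members (log2 0.59 ± 0.25). It passed when the 2 MC38 groups were fitted alone (limma adjusted p = 0.0446). With the block and without the B16F10 number 12 pair, a fit in which the spread is estimated from the remaining libraries, 6 members passed as higher in MC38 (17.1%, against 0.957% of all genes, and 0.203% of all genes as lower): Aldoa, Gpi1, Ldhb, Pgam1, Slc16a3 and Tpi1. In MC38 the macrophage core sum was higher in RFP+ libraries. Its largest part, Lyz2, had 19359, 19408 and 15702 FPKM in RFP+ and 12202, 12062 and 9144 FPKM in RFP- libraries. Over the 15 core markers the median log2 difference was 0.042, with 0 called, and Csf1r, Adgre1 and Aif1 were lower in RFP+ in each pair. The dendritic cell sum was 27.6 to 50.5 FPKM in MC38 RFP+ and 45 to 87.2 FPKM in MC38 RFP- libraries, with 4 and 5 of 8 markers at 1 FPKM. The part of these markers in the differences was not tested.

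**Figure D5:**
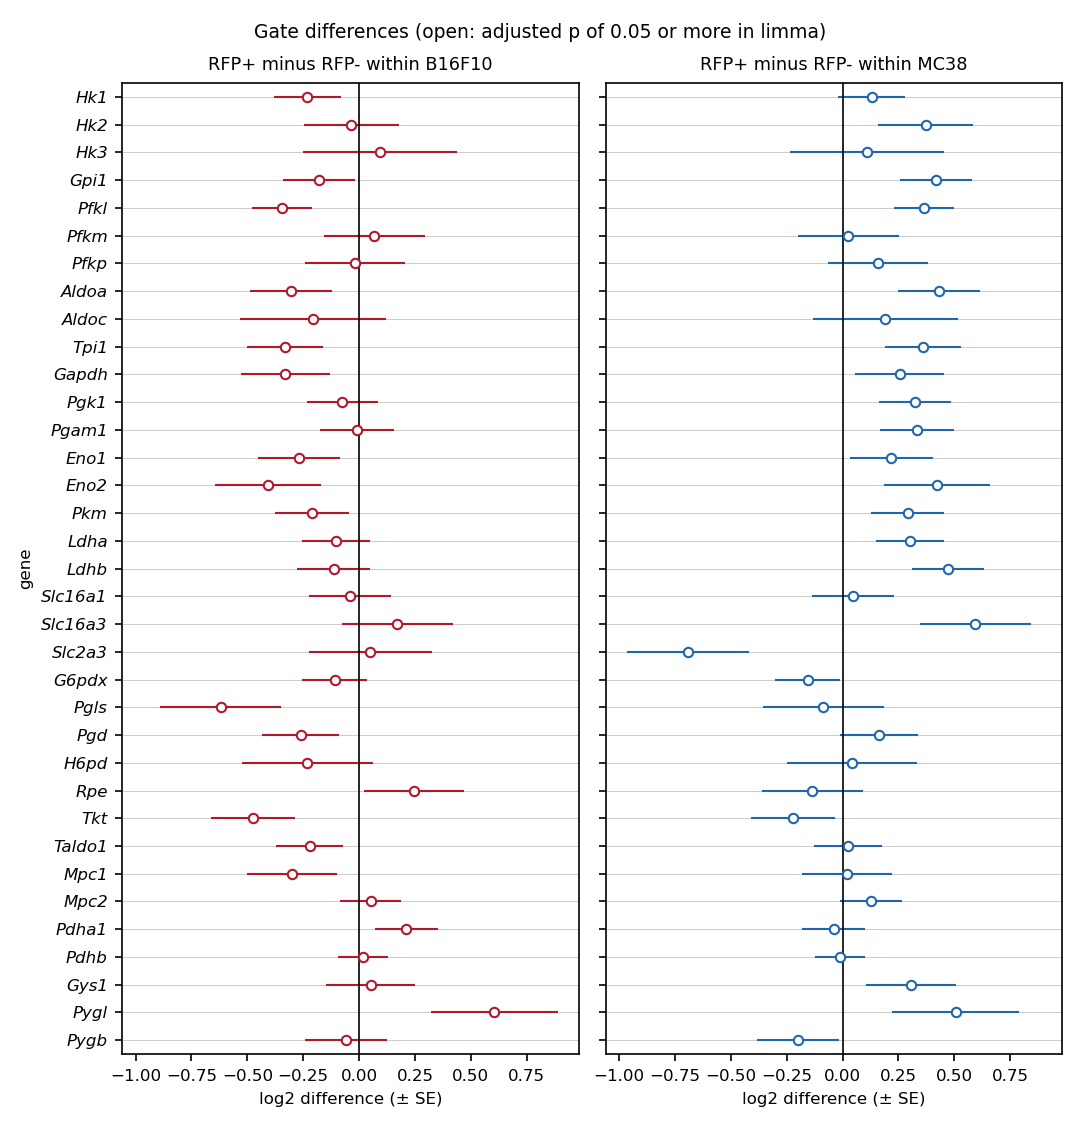
Log2 difference (x axis, log2(FPKM + 1) scale, bars are SE) of RFP+ minus RFP- for the 35 tested members (y axis), within B16F10 on the left and within MC38 on the right. All points are open because 0 members passed in limma; the glycolytic genes from Gpi1 to Ldhb lie mostly left of 0 in B16F10, where quantile normalization moves Gpi1, Pfkp, Pgk1, Pgam1 and Ldhb and upper-quartile scaling Pfkp and Pgam1 to the right of 0, and right of 0 in MC38, where scaling to the macrophage core genes moves Pfkm to the left.

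Whether the gate difference depended on the tumour was tested as the difference of both differences, B16F10 minus MC38. In limma 0 members passed (background 0% in each direction), and 0 passed with the block (background 0.0254% higher and 0.00847% lower). At an unadjusted p under 0.05, 7 were lower, Gpi1, Pfkl, Aldoa, Tpi1, Eno2, Pkm and Ldhb (20%, against 2.19% of all genes), and 0 higher (background 1.66%). In all of these 7, B16F10 RFP- 12 had the highest value of the 12 libraries, as it did in 28.4% of all genes. Pfkl, for example, had 288 FPKM there and 241 and 239 FPKM in the other B16F10 RFP- libraries. The MC38 values of Eno2 were all below the filter of 1 FPKM. The median over the members was -0.34, beside -0.022 over all genes, -0.19 after quantile normalization, -0.22 without B16F10 RFP- 12 and -0.17 without the number 12 pair. Pfkl had the smallest p, with a difference of -0.71 ± 0.19 (SE, limma adjusted p = 0.895). Its RFP+ libraries were all below its RFP- libraries in B16F10 and all above them in MC38. In 6 of 35 members all 3 pairs were lower in RFP+ cells in B16F10 and higher in MC38. Of all genes, 4.38% had opposite signs in all pairs of the tumours.

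The number 11 libraries and RFP- 12 were each set against the other B16F10 libraries. In both number 11 libraries, which had the highest melanocytic and the lowest macrophage core sums, Hk2, Pfkm, Pfkp, Aldoc, Pgk1, Pgam1, Pdhb and Gys1 were above the other 4 B16F10 libraries (22.9%, against 13.5% of all genes). Hk3, Ldhb, Slc16a3, Slc2a3, Pgd, H6pd and Taldo1 were below those 4 (20%, against 13.8%). RFP- 12 exceeded the other 5 B16F10 libraries in 21 members (60%, against 35.8% of all genes) and lay below them in 5 (14.3%, against 31.4%), Hk2, Rpe, Pdha1, Pdhb and Pygl. It was the highest of all 12 libraries in 15 members (42.9%, against 28.4%) and the lowest in 2 (5.71%, against 19%).

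Of 81 further genes of glucose, glycogen and pyruvate metabolism and their regulators, 61 could be tested. Between the tumours 28 were higher and 11 lower in RFP+ cells (45.9% and 18%, against 35.2% and 20% of all genes). In RFP- cells 29 were higher and 14 lower (47.5% and 23%, against 37.8% and 21.9%), and 12 were lower with the block. Of the higher genes, 5 in RFP+ and 6 in RFP- cells reached 1 FPKM in no MC38 library, so that the filter fixed their direction. The median log2 difference of all 61 genes was 0.51 in RFP+ and 0.40 in RFP- cells, beside 0.23 and 0.23 over all genes tested. The fructose transporter gene Slc2a5 had 11.6, 11.6 and 10.2 FPKM in B16F10 RFP+ and 13.4, 15 and 12.3 FPKM in B16F10 RFP- libraries and 0.00465, 0.00477 and 0.00842 FPKM in MC38 RFP+ and 0.0045, 0.359 and 0.0477 FPKM in MC38 RFP- libraries. It reached 1 FPKM in B16F10 libraries alone, so the direction of its log2 difference (3.59 ± 0.18 in RFP+ and 3.69 ± 0.18 in RFP- cells, SE) was fixed by the filter. The same holds for Gpd1, the glycerol 3-phosphate dehydrogenase of the cytosol (log2 3.60 ± 0.28 in RFP+ and 3.99 ± 0.28 in RFP- cells), and Pygm, the muscle form of glycogen phosphorylase (2.97 ± 0.26 in RFP+ and 3.43 ± 0.26 in RFP- cells). Nfe2l2, which encodes the antioxidant regulator NRF2 that induces pentose phosphate enzymes, had 61.5, 65.7 and 62.4 FPKM in B16F10 RFP+ and 39.7, 70.3 and 54.8 FPKM in B16F10 RFP- libraries. Nfe2l2 in MC38 had 338, 266 and 322 FPKM in RFP+ and 311, 299 and 313 FPKM in RFP- libraries. It was lower in B16F10 without overlap, with a log2 difference of -2.26 ± 0.17 in RFP+ and -2.5 ± 0.17 in RFP- cells (SE, limma adjusted p = 2.85e-07 and 1.04e-07), on the scale of FPKM as deposited.

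Slc2a1, which encodes GLUT1, the main glucose transporter of macrophages, had 129, 175 and 141 FPKM in B16F10 RFP+ and 125, 127 and 103 FPKM in B16F10 RFP- libraries. Slc2a1 in MC38 had 109.6, 97.9 and 87.2 FPKM in RFP+ and 75.2, 62.4 and 67.2 FPKM in RFP- libraries. In both tumours its RFP+ libraries were all above its RFP- libraries, as were those of 5.72% of all genes in B16F10 and 6.33% in MC38. The difference passed in neither tumour (in MC38 log2 0.52 ± 0.15, SE, limma adjusted p = 0.666). Slc2a1 was named after its values were seen. Between the gates 0 of these 61 genes passed in either tumour in limma. With the block 1 did, Ppp1r3b in B16F10, which encodes a subunit that brings protein phosphatase 1 to glycogen. It had 11.2, 4.21 and 17.1 FPKM in B16F10 RFP+ and 2.31, 1.42 and 8 FPKM in B16F10 RFP- libraries, higher in RFP+ in all 3 pairs (log2 1.33 ± 0.20, SE with the block, limma adjusted p = 0.00854, and 0.444 without it). The exons of 11 members overlap another annotated gene, among them Hk1, Pfkm, Pfkp, Tpi1, Gapdh, G6pdx and Pdha1, each with a partner on the other strand. Senp1, the partner of Pfkm, had 3.22 to 11.7 FPKM, close to Pfkm itself, so the values of Pfkm are uncertain.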

How the data were processed

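The 12 deposited tables hold FPKM per gene, 1 table a library. Per the labels' protocols, RNA of sorted cells was taken up in TRI Reagent, amplified with SMART-Seq HT and made into libraries with Nextera XT. The submitters' processing notes name TopHat2 2.1.1, Bowtie2 2.2.8, SAMtools 0.1.18, Cuffdiff 2.2.1 and mm10; the sources used here do not give the annotation, filters, strand setting or any scaling between libraries. Since FPKM deposited by the authors are not counts, no count test was run, depth is unknown, and no counting interval is given.

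FPKM of repeated symbols were summed and log2(FPKM + 1) was fitted with limma 3.58.1 (R 4.3.3, trend on) over the 11808 genes that reached 1 FPKM in 3 or more libraries, as 4 group means with 8 residual degrees of freedom. Differences are on that log2 scale, which understates changes of low genes. P-values were adjusted by Benjamini-Hochberg over all genes tested, with a threshold of 0.05. Same-numbered libraries of a tumour deviated together from their group means (r from 0.228 to 0.443, other pairs from -0.306 to 0.0178, limit 0.1), so the title number was also fitted as a block. For the gate comparisons and their difference between tumours it was a fixed effect, with 4 residual degrees of freedom. For the tumour comparisons it was a random effect, with a correlation of 0.291 within a block. No 2 libraries held identical values. The scripts were tested on simulated data.

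The members and lists were chosen with earlier results of these data known. Every library's value is given for members past the threshold in any comparison, for up to 4 members with the smallest unadjusted p in a gate comparison without calls, and for each step's most abundant isoenzyme; up to 6 other pathway genes are named by smallest p. Alternatives were other pseudocounts and filters, quantile and upper-quartile scaling, scaling to the median of the macrophage core genes, fits of the compared groups alone, the block, and leaving out each library. Promoter windows are from RefSeq (GRCm38.p6). With 3 libraries a group, an exact two-sided permutation test could not give a p under 0.1, so none was used.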

Additional observations from a re-analysis of the deposited data

Results flagged for a closer look

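In 6 of 35 members all 3 same-numbered pairs had lower FPKM in RFP+ libraries in B16F10 and higher FPKM in MC38. Of all genes tested, 4.38% had opposite signs in all pairs of the tumours. The gate difference in B16F10 minus that in MC38 was, on the log2 scale, Pfkl -0.71 (limma adjusted p = 0.895), Aldoc -0.40 (limma adjusted p = 0.906), Gapdh -0.58 (limma adjusted p = 0.895), Pgk1 -0.40 (limma adjusted p = 0.895), Pkm -0.50 (limma adjusted p = 0.895) and Pgd -0.43 (limma adjusted p = 0.895). None of the 6 passed the test of that difference. The B16F10 side of Pgk1 changed sign under quantile normalization. That of Gapdh and Pkm was large in the number 12 pair alone. In RFP+ against RFP- libraries Gapdh had 4686 against 9044 FPKM there, 6725 against 6743 in pair 11 and 5237 against 5374 in pair 3. Pkm had 2680 against 4072 FPKM in pair 12, 2886 against 2896 in pair 11 and 2661 against 2703 in pair 3.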

How the results depend on the processing

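Counts of called members moved by over 1.5 times in 7 of 218 alternatives. Gate comparisons gave 1 higher member in B16F10 with the replicate block and without the number 12 pair (Slc16a3, log2 0.44, limma adjusted p = 0.0498), against 0.83% of all genes. From 0 to 1 lower members passed in B16F10 over the fits that leave out a library, against 0 to 0.33% of all genes. In MC38, 1 higher member passed with the compared groups alone (0.0593% of all genes), and 6 with the block and without the number 12 pair (0.957%). Scaling to the macrophage core genes gave 33 higher and 0 lower members in RFP+ cells and 0 lower in RFP- cells, where 84.6% and 2.72% of all genes passed as higher and lower in RFP+ cells and 2.96% as lower in RFP- cells. It turned the tumour difference to 0.35 for Slc16a3, 1.17 for Taldo1, 0.56 for Hk3, 0.78 for Pygl and 1.41 for Pgd in RFP+ cells, and to 0.76 for Slc16a3, 1.40 for Taldo1, 0.56 for Hk3 and 0.63 for Pygl in RFP- cells. Leaving out 1 library kept the higher counts between 21 and 23 (RFP+) and 22 and 25 (RFP-), and the lower ones between 4 and 6 in each gate. In these fits 30.6% to 40.2% of all genes passed as higher in RFP+ and 34% to 37.5% in RFP- cells. As lower, 17.3% to 22.3% passed in RFP+ and 19.4% to 22% in RFP- cells. Of 1381 alternatives for single members, 24 ended a call of Pgd, Aldoc, Pdha1, Mpc2 or Tkt with the sign kept, and the 9 sign changes above ended the lower calls of Slc16a3, Taldo1, Hk3, Pygl and Pgd. The block by title number over all libraries changed no other call of a member. Without B16F10 RFP- 12, 23 members were higher and 6 lower in RFP+ cells, against 40.2% and 22.3% of all genes. In RFP- cells 24 were higher and 6 lower in that fit, against 37.2% and 21.1% of all genes. The causes were not tested. Depth is unknown, and the small steps of FPKM limit Slc2a3, Eno2 and Rpia most.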
